A study of Homo sapiens with 10 samples.

Results

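The genes that build cholesterol and long-chain fatty acids were followed through 10 libraries of poly(A)-selected RNA from D425 and HD-MB03, cell lines established from Group 3 medulloblastoma, a childhood tumour of the cerebellum. The list held 30 genes chosen for their known function, with earlier results of these data already known. Of these, 29 of the 30 were matched to a row of the count files, which hold 57820 gene identifiers each. All 29 were among the 16006 genes with enough reads to be tested. ACACA, acetyl-CoA carboxylase, was not matched to an identifier by the symbol tables used and was not analysed here.

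CRX, a homeobox transcription factor of photoreceptors, was the target of RNA interference. In the D425 shCRX group (3 libraries), stable polyclonal populations carried a hairpin against CRX in Tet-pLKO-puro, a lentiviral vector whose hairpin is switched on by doxycycline. The D425 controls were 1 library of cells with the empty vector and 2 libraries of parental, non-transduced cells. The HD-MB03 shCRX group had 2 libraries, and the HD-MB03 controls were 1 empty-vector and 1 parental library. Per the labels, every group was grown in medium with fetal bovine serum and received doxycycline at 4 µg/ml for 72 h. The study used a pair of hairpins, which the labels do not assign to libraries. Nothing in the labels says that replicate libraries stem from separate cultures, and the p-values then reflect a spread that may be technical.

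Cholesterol is made from acetyl-CoA through mevalonate, isoprenoid diphosphates, squalene and lanosterol, and fatty acids are made from the same acetyl-CoA by chain elongation and desaturation. Most genes of both routes are targets of the sterol regulatory element binding proteins, which are encoded by SREBF1 and SREBF2. SCAP escorts these precursors out of the endoplasmic reticulum when sterols are scarce, and INSIG1 holds them there when sterols are plentiful. In the developing cerebellum sterol synthesis matters for Hedgehog signalling, and rapidly dividing tumour cells need sterols and fatty acids for new membranes.

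The depth was 1.96 to 18.06 M counted reads. The HD-MB03 vector and parental libraries stood apart, with 26.4% and 30.9% of reads not aligned, against 4.54% to 7.99% in the other 8, and they were the shallowest. The serial numbers in the deposited library names ran between 20 and 62 for the D425 shCRX and HD-MB03 control libraries and between 110 and 136 for the D425 control and HD-MB03 shCRX libraries, so within a line the hairpin and the number set cannot be told apart. CRX itself had 20.3, 20.9 and 25.3 CPM (read counts scaled to the effective library size) in the D425 shCRX libraries, against 64.9 in the D425 vector library and 47.5 and 29.7 in the parental ones (log2 fold change -1.10, edgeR adjusted p = 0.0436). In HD-MB03 it had 27.7 and 23.5 CPM in the libraries labelled shCRX, against 12.3 in the vector and 12.5 in the parental library (1.04, edgeR adjusted p = 0.174), which goes against the label, so HD-MB03 directions below refer to libraries labelled shCRX. Whether the HD-MB03 labels are exchanged cannot be told from these files. An exchange would turn every HD-MB03 direction below and would make the mean of the lines and the difference between the lines trade places. The summed level of 9 Group 3 medulloblastoma markers was 3148 to 5052 CPM in D425 shCRX and 5946 to 6873 in D425 controls, and 8562 to 9038 in HD-MB03 shCRX and 8304 to 9847 in HD-MB03 controls. Summed over 9 fibroblast markers, of which FAP was at 0 throughout, the level was 51.9 to 85.4 CPM in D425 shCRX, 25.9 to 37.7 in D425 controls and at most 15.6 in HD-MB03. Most of the D425 sum was PDGFRB, at 74.0, 39.3 and 49.1 CPM in shCRX, against 29.3 in the vector and 24.6 and 17.2 in the parental libraries. Of the 6 fibroblast markers tested in D425, 4 had a positive and 2 a negative log2 fold change. The part of either marker list in the results below was not tested. Markers of the classic lipid-making cell types were near 0, with at most 0.645 CPM summed over 4 adipocyte genes and at most 2 CPM over 4 hepatocyte genes.

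All 29 genes had reads in all 10 libraries, though TM7SF2 had only 5 in the HD-MB03 vector and 3 in the HD-MB03 parental library. Per kilobase of the longest transcript, ACLY, FASN, SCD and FADS1, which supply, build or desaturate fatty acids, were the 4 highest of the 29 genes in HD-MB03, and in D425 they shared the first 5 ranks with SC5D, a sterol desaturase. ACLY, which makes cytosolic acetyl-CoA from citrate, was at 243 CPM per kilobase in D425 and 321 in HD-MB03, the first of the 29 in each line. FASN, the fatty acid synthase, was at 119.9 in D425 and 161 in HD-MB03, SCD, the main stearoyl-CoA desaturase, at 58.3 in D425 and 81.4 in HD-MB03, and FADS1, a desaturase of polyunsaturated fatty acids, at 75.5 in D425 and 69.8 in HD-MB03. SC5D was second in D425 at 134 CPM per kilobase and ranked 21 in HD-MB03 at 12.3. The lowest levels per kilobase belonged to CYP51A1 in D425 (2.09) and TM7SF2 in HD-MB03 (2.32). The CYP51A1 level is uncertain, since 79.4% of its exon bases are shared with other genes on the same strand in the annotation used for positions. As a share of counted reads, the 29 genes together took 0.441% to 0.662%. Their summed level was 3880, 5686 and 4395 CPM in the D425 shCRX libraries, against 4826 in the D425 vector library and 5332 and 5203 in the parental ones, and the groups overlap. In HD-MB03 it was 4649 and 4963 CPM in the shCRX libraries, against 5267 in the vector and 7175 in the parental library, with no overlap. Most of each HD-MB03 sum came from the fatty acid genes, with 2923 and 3180 CPM in shCRX, against 3848 in the vector and 5157 in the parental library. The mevalonate genes (321 and 358 CPM, against 240 and 289) and STARD4 were higher in shCRX. The sums of the regulators and of the genes between squalene and cholesterol lay between the 2 controls.

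**Figure D1:**
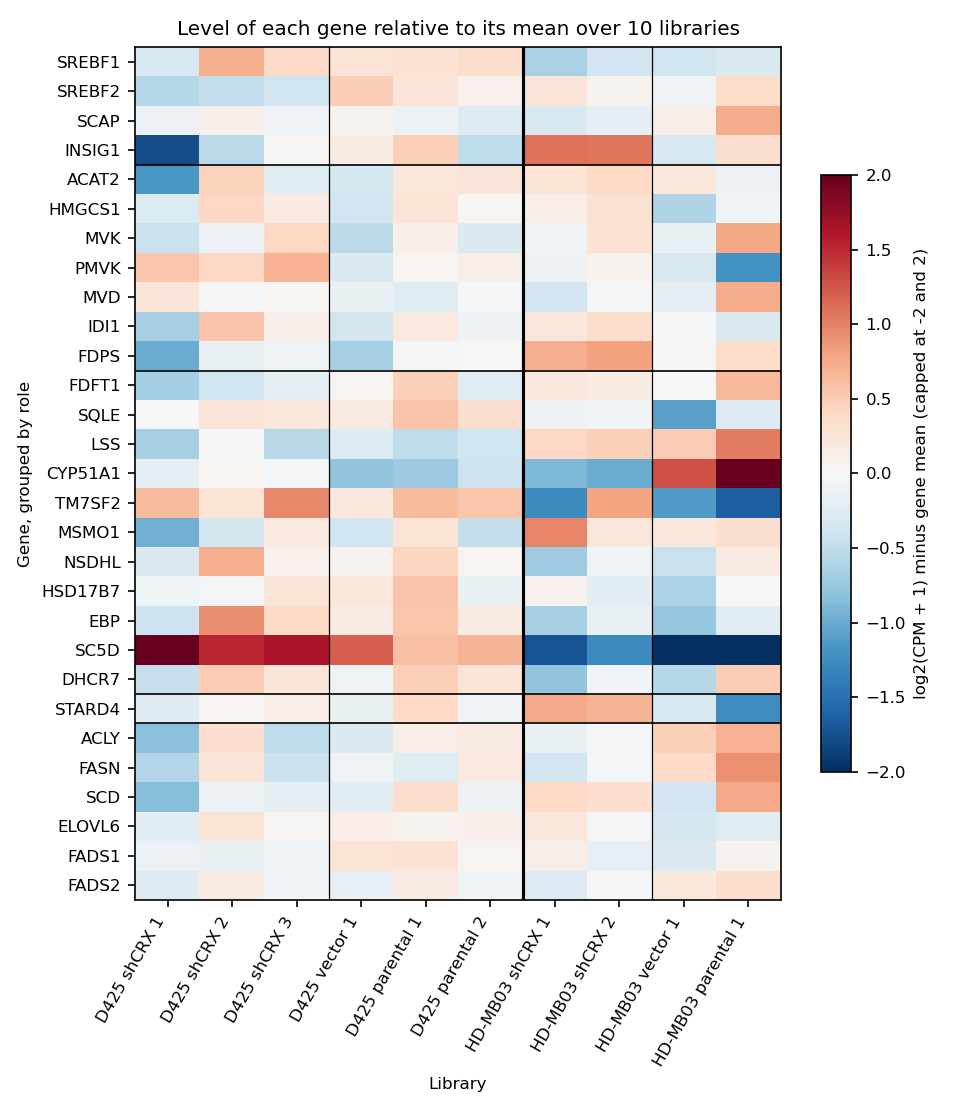
Level of 29 cholesterol and fatty acid synthesis genes in 10 libraries, as log2(CPM + 1) minus the gene's mean over all libraries (colour, capped at -2 and 2), with genes in rows grouped by role and libraries in columns. SC5D is high in all 6 D425 libraries, CYP51A1 is high in both HD-MB03 control libraries, INSIG1 is high in both HD-MB03 shCRX libraries, and the column of D425 shCRX replicate 1 holds the lowest D425 shCRX value of most genes.

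The first comparison asks what changed in D425 cells with the CRX hairpin. Of the 29 genes, 1 passed the test and it fell, while 2.97% of all tested genes passed in this comparison and 1.37% fell. The threshold was an adjusted p under 0.05 (Benjamini-Hochberg, over all 16006 genes) in the quasi-likelihood test of edgeR. The gene that fell was SREBF2, which encodes the factor that drives most cholesterol synthesis genes. SREBF2 had 224, 237 and 253 CPM in the D425 shCRX libraries, against 470 in the vector library and 400.4 and 356 in the parental libraries. All 3 shCRX values lay below all 3 control values, with little spread among the shCRX libraries. On the log2 scale the difference was -0.78 ± 0.18 (SE, 95% interval -1.17 to -0.39), or 0.582 of the control level, with an edgeR adjusted p of 0.0396. The fold change lay between -0.91 and -0.67 when each library was left out in turn, but the call was lost in 7 of those 10 fits, without D425 parental 1, D425 vector, any of the 3 D425 shCRX libraries or either HD-MB03 shCRX library (adjusted p up to 0.157). It was also lost with the D425 libraries fitted alone (adjusted p = 0.0587), with scaling by library totals (-0.65, adjusted p = 0.0613) and with libraries thinned to equal depth (-0.70, adjusted p = 0.0643), and with the vector or the parental libraries alone as controls (adjusted p = 0.185 and 0.146).

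The other regulators did not pass in D425 by edgeR. SREBF1, which encodes the factor that favours fatty acid synthesis genes, had 69.5, 143 and 113 CPM in the D425 shCRX libraries, against 104 in the vector and 105 and 110.4 in the parental libraries. The 3 controls lay within the span of the shCRX libraries, and the log2 fold change was 0.02 (95% interval -0.47 to 0.52). SCAP had 159, 186 and 165 CPM in shCRX, against 181 in the vector and 159.8 and 144 in the parental libraries (0.07, interval -0.35 to 0.48). INSIG1, which sterol regulatory element binding proteins also activate, had 17.8, 43.4 and 64.2 CPM in shCRX, against 70.5 in the vector and 88.1 and 44.5 in the parental libraries. It varied widely among the shCRX libraries alone and overlapped the controls (-0.72, interval -1.57 to 0.13, edgeR adjusted p = 0.384), and it passed with no filter on low counts (-0.78, edgeR adjusted p = 0.0261).

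None of the 7 mevalonate pathway genes passed in D425 (0 called by edgeR, 1 at an unadjusted p under 0.05, where 17.3% of all tested genes had one, and 0 called by DESeq2), and their log2 fold changes ran between -0.26 for ACAT2 and 0.60 for PMVK. PMVK, which adds the second phosphate to mevalonate, had 32.2, 29.4 and 35.8 CPM in shCRX, against 17.6 in the vector and 22.7 and 23.9 in the parental libraries. These groups do not overlap, but the adjusted p was 0.207 (edgeR). HMGCS1, MVK, MVD, IDI1 and FDPS, which carry the route to farnesyl diphosphate, lay between -0.18 and 0.24.

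Among the 11 genes between squalene and cholesterol, 0 were called by edgeR in D425 (2 at an unadjusted p under 0.05) and the largest difference was that of SC5D. SC5D, the sterol desaturase of a late step, had 643, 334 and 361 CPM in shCRX, against 268 in the vector and 177 and 187 in the parental libraries. All shCRX libraries were above all controls, and replicate 1 was far above the others. On the log2 scale this was 1.08 ± 0.27 (SE, interval 0.50 to 1.66) and narrowly missed the threshold (edgeR adjusted p = 0.0511), whereas it passed with DESeq2 (adjusted p = 0.00776), limma-voom (0.0457), scaling by library totals (1.24, edgeR adjusted p = 0.0376), no filter on low counts, a replicate block and a correction for GC content and length (edgeR adjusted p = 0.0464). It did not pass with the D425 libraries fitted alone (edgeR adjusted p = 0.0903), thinned to equal depth (0.0548), or with the parental (1.28, 0.106) or the vector library alone as control (0.72, 0.577). Of the 10 fits that left out a library it passed in 1, without shCRX replicate 2, and without shCRX replicate 1 it was 0.71 (edgeR adjusted p = 0.121). CYP51A1, the lanosterol demethylase, had 7.48, 8.89 and 8.44 CPM in shCRX, against 4.54 in the vector and 4.76 and 6.13 in the parental libraries, without overlap (0.68, interval -0.07 to 1.42, edgeR adjusted p = 0.344). FDFT1, which makes squalene, was at -0.55 (interval -1.04 to -0.05, edgeR adjusted p = 0.239). SQLE, LSS, TM7SF2, MSMO1, NSDHL, HSD17B7, EBP and DHCR7 lay between -0.22 and 0.17.

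The 6 tested genes of fatty acid synthesis and desaturation all had slightly negative log2 fold changes in D425, between -0.39 for SCD and -0.02 for FADS2, and none passed (0 called by edgeR, 0 at an unadjusted p under 0.05, 0 called by DESeq2). ACLY had 639, 1441 and 802 CPM in shCRX, against 926 in the vector and 1244 and 1269 in the parental libraries. FASN had 739.7, 1328 and 823 CPM in shCRX, against 1044 in the vector and 944 and 1281 in the parental libraries. For both enzymes shCRX replicate 2 was the highest and replicate 1 the lowest of all 6 libraries, so the shCRX libraries span the controls. For FADS1 alone of the 6 the groups did not overlap, with 302, 297 and 313 CPM in shCRX, against 397 in the vector and 400.4 and 339.8 in the parental libraries (-0.32, edgeR adjusted p = 0.378). STARD4, which carries cholesterol between membranes, was at -0.12.

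Over the whole list the median log2 fold change in D425 was -0.06, against 0.02 over all tested genes, with 12 genes above and 17 below 0. For 23 of the 29 genes the log2 fold change was smaller than 0.5 in size, and 20 had a 95% interval inside -1 to 1. The shCRX and control libraries did not overlap for 4 genes that were higher (PMVK, MVD, CYP51A1, SC5D) and 2 that were lower (SREBF2, FADS1) of 29. Over all tested genes the libraries did not overlap for 23.0%. The members also differed between shCRX replicates: replicate 1 was the lowest of the 3 for 24 of the 29 genes, against 35.5% of all tested genes, and replicate 2 was the highest for 16. Across all tested genes the log2 fold change had a Spearman rho of 0.277 with GC content, given as a description since genes are not independent. The median GC content was 50.5% for the 29 genes and 48.2% for all tested genes, 57.1% for SREBF2 and 38.6% for SC5D.

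**Figure D2:**
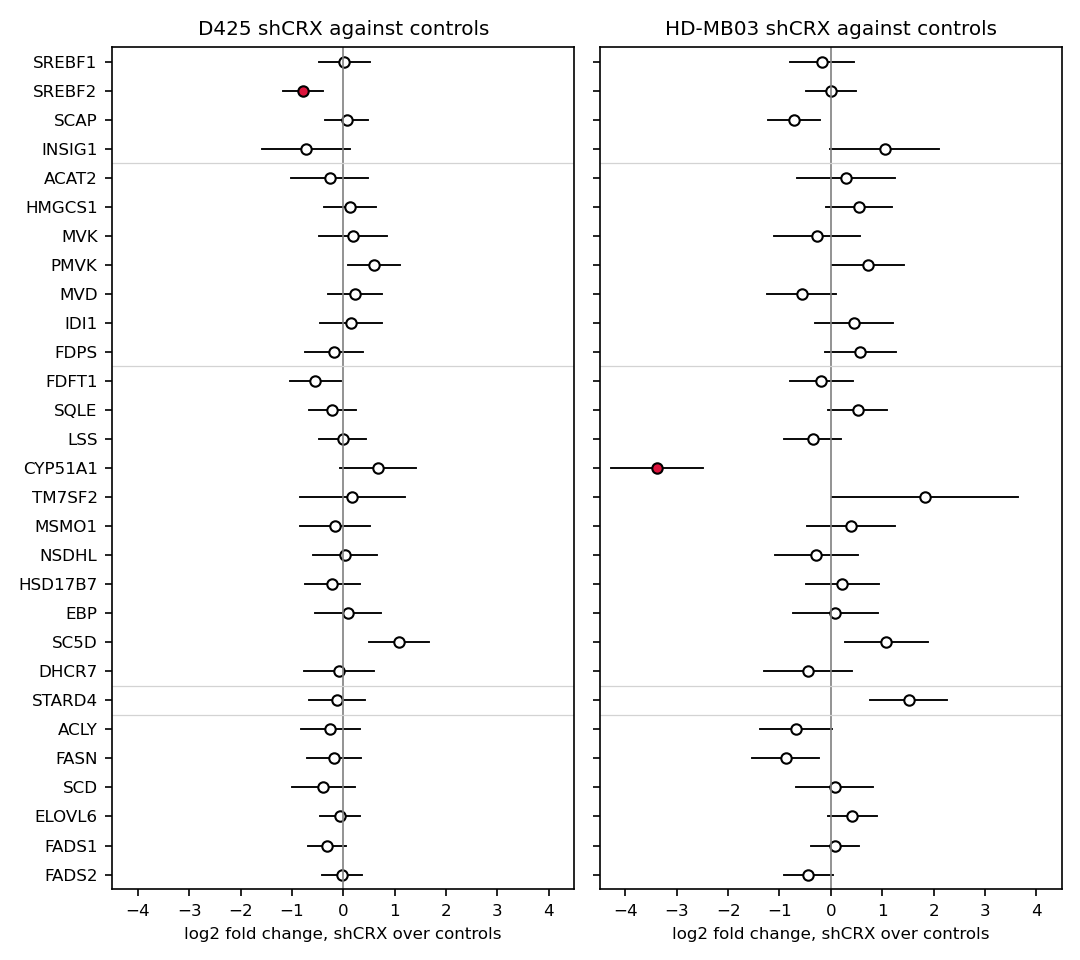
Log2 fold change of shCRX over control libraries for 29 genes, grouped by role, in D425 (left) and HD-MB03 (right), with points for edgeR estimates, lines for 95% intervals and filled points for an adjusted p under 0.05. SREBF2 at -0.78 is the filled point in D425 and CYP51A1 at -3.38 the filled point in HD-MB03, and SC5D lies at 1.08 in both panels.

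Promoters of 26 of the 30 genes were found in RefSeq (GRCh38.p14) as 35 windows of 300 bases that run over each start site. Those of 3 genes are printed because SREBF2 was the gene called in D425, SC5D had the largest difference there and INSIG1 is the feedback gene whose level varied most among the regulators. Capitals mark TCACNCCAC, the core of the sterol regulatory element, and CCAAT, the NF-Y box, which reads ATTGG where it lies on the other strand.
SREBF2, chr22:41832855-41833154, plus strand: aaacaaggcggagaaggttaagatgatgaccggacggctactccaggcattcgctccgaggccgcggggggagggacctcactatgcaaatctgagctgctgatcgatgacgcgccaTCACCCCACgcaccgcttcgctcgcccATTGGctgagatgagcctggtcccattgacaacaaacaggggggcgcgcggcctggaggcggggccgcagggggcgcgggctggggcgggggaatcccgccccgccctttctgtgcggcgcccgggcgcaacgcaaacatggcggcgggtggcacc
INSIG1, chr7:155297628-155297927, plus strand: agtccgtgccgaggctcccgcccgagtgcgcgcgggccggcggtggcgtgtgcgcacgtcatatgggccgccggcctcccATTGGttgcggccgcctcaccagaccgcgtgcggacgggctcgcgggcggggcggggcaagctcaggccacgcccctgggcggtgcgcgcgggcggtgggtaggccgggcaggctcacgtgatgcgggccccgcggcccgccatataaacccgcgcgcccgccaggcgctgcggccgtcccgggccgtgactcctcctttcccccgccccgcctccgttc
SC5D, chr11:121292521-121292820, plus strand: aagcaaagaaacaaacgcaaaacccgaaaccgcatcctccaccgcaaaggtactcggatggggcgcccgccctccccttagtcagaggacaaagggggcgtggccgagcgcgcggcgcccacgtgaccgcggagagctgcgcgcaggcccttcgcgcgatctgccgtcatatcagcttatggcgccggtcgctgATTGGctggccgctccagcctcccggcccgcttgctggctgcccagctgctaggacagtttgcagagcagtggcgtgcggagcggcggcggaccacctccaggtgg

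TCACNCCAC was found on either strand in 1 of the 35 windows, that of SREBF2, where it starts at position -133 relative to the start site, and in 1.13% of all 35116 RefSeq windows of the same length. CCAAT was found in 24 of the 35 windows (68.6%), which belong to 20 of the 26 genes, and in 34.6% of all windows. CACGTG, the E-box, was in 5 windows (14.3%) against 7.26% of all, and GGGCGG, the GC box bound by Sp1, in 31 (88.6%) against 45% of all. TAATCC, the core that CRX prefers, was in 2 windows (5.71%), those of ACACA and HSD17B7, against 6.36% of all. These are matches of letters in a 300-base window and say nothing of binding. FASN, ACAT2, FDFT1 and SQLE had no window.

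In HD-MB03 the list again held 1 called gene, and another one. CYP51A1 fell in the libraries labelled shCRX, where 1.51% of all tested genes passed and 1.24% fell. CYP51A1 had 4.15 and 3.80 CPM in the shCRX libraries (58 and 53 reads), against 22.0 in the vector library (41 reads) and 60.9 in the parental library (117 reads). Both shCRX values were far below both controls, and the parental library was far above the vector one. On the log2 scale the difference was -3.38 ± 0.42 (SE, interval -4.28 to -2.48), with an edgeR adjusted p of 0.00391. Without the parental library it was -2.45 (edgeR adjusted p = 0.0524), with the vector library as sole control -2.49 (adjusted p = 0.126), and without shCRX replicate 2 it was -3.31 (adjusted p = 0.0692). Both controls are the libraries with 26.4% and 30.9% of reads not aligned, so no value without them can be had within HD-MB03. In the annotation used here for positions (GENCODE v29 on GRCh38, not the build of the files), 79.4% of the exon bases of CYP51A1 are shared with other genes on the same strand, so its reads are uncertain. Reads of the overlapping AC000120.2 and AC000120.3 are not reported here, and CYP51A1-AS1 and the neighbouring LRRD1 each held 0 to 2 reads per library.

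The other genes did not pass in HD-MB03 by edgeR. STARD4 had 34.2 and 32.3 CPM in shCRX, against 15.6 in the vector and 7.81 in the parental library, without overlap (1.51 ± 0.35, interval 0.76 to 2.27, edgeR adjusted p = 0.0530). It passed with DESeq2 (adjusted p = 0.00668), with no filter on low counts, with a replicate block (edgeR adjusted p = 0.0497), with HD-MB03 fitted alone (1.46, edgeR adjusted p = 0.0413) and in 3 of the 10 fits that left out a library, among them the one without the HD-MB03 vector library (2.11, edgeR adjusted p = 0.0415). It did not pass with limma-voom (adjusted p = 0.114), thinned (edgeR adjusted p = 0.0791), with GC and length correction (1.01, 0.173), without the HD-MB03 parental library (1.11, 0.386), or with the vector (1.07, 0.506) or the parental library alone as control (2.11, 0.0615). INSIG1 had 135 and 134 CPM in shCRX, against 50.9 in the vector and 79.1 in the parental library (1.05, interval -0.01 to 2.11, edgeR adjusted p = 0.301). SC5D had 34.4 and 47.5 CPM in shCRX, against 22.5 in the vector and 16.1 in the parental library, which is 1.08 on the log2 scale (interval 0.27 to 1.90, edgeR adjusted p = 0.173). TM7SF2, a sterol reductase, had the widest interval (0.02 to 3.65), with 2.36 and 12.8 CPM in shCRX (33 and 179 reads), against 2.68 in the vector (5 reads) and 1.56 in the parental library (3 reads). With no filter on low counts INSIG1, SC5D and TM7SF2 passed as well (edgeR adjusted p = 0.0100, 0.00987 and 0.0497).

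SREBF2, the gene called in D425, had 397 and 352 CPM in HD-MB03 shCRX, against 319 in the vector and 429 in the parental library, with shCRX between the controls (0.00, interval -0.48 to 0.49). SREBF1 had 54.8 and 65.5 CPM in shCRX, against 64.9 in the vector and 70.3 in the parental library (-0.17, interval -0.80 to 0.46). SCAP had 139 and 149.6 CPM in shCRX, against 186 in the vector and 289 in the parental library (-0.72, edgeR adjusted p = 0.155). None of the 3 passed by edgeR, and SCAP passed with DESeq2 (-0.79, adjusted p = 0.0414).

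By role, the mevalonate genes of HD-MB03 had a median log2 fold change of 0.45 with 5 of 7 above 0, the genes between squalene and cholesterol 0.09, and the fatty acid genes -0.18. FASN had 858 and 1085 CPM in shCRX, against 1471 in the vector and 2099 in the parental library (-0.88, interval -1.53 to -0.23, edgeR adjusted p = 0.171). ACLY had 1022 and 1124 CPM in shCRX, against 1582 in the vector and 1843 in the parental library (-0.67, edgeR adjusted p = 0.315). Over the list the median was 0.08, against 0.10 over all tested genes, with 17 genes above and 12 below 0. Libraries did not overlap for 10 genes that were higher and 6 that were lower, 16 of 29, while 52.3% of all tested genes did not overlap. Only 10 of the 29 intervals lay inside -1 to 1, and the Spearman rho of the fold change with GC content across all tested genes was -0.357.

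**Figure D3:**
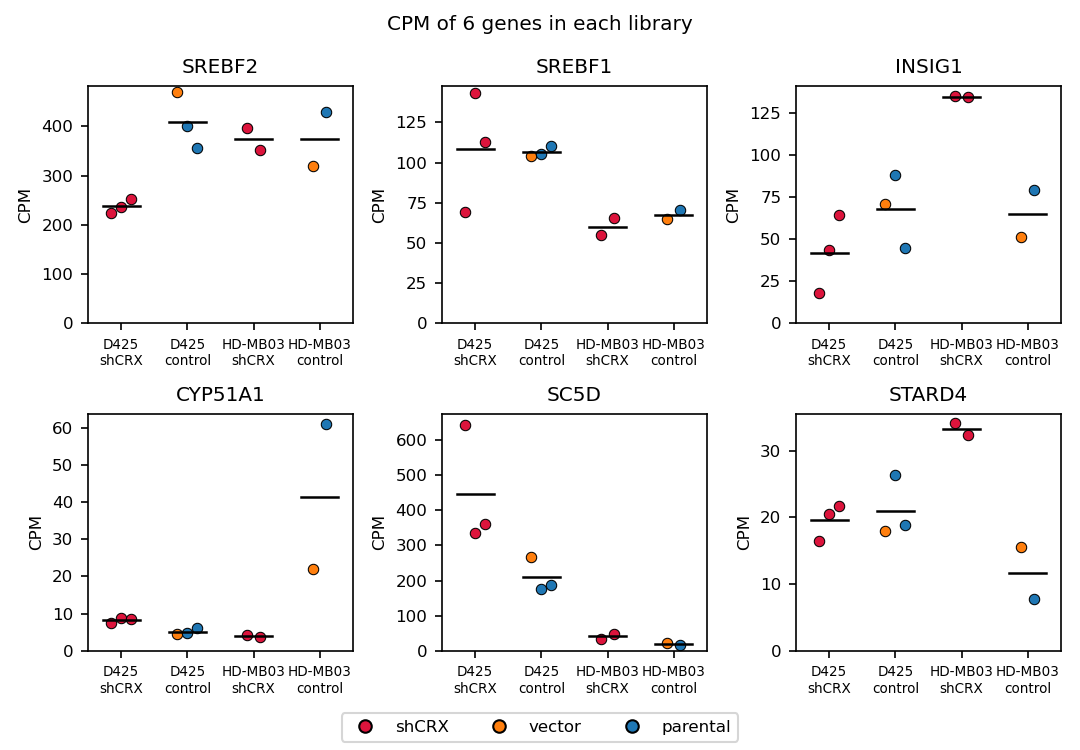
CPM of 6 genes in each library, with shCRX left of its controls for each line, points coloured by kind of library and bars at group means. SREBF2 in D425 shCRX (224 to 253 CPM) lies below all D425 controls, CYP51A1 is at 22.0 and 60.9 CPM in the HD-MB03 controls and under 9 CPM elsewhere, and SC5D is above its controls in both lines.

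Averaged over the lines, shCRX against controls, 0 of the 29 genes passed in edgeR (8 at an unadjusted p under 0.05, 4 in each direction, and 2, CYP51A1 and SC5D, past the threshold with DESeq2), where 0.225% of all tested genes passed and 13.2% had an unadjusted p under 0.05. The median was -0.04, against 0.07 over all tested genes. SC5D came closest among the genes with the same direction in both lines, at 1.08 ± 0.23 (SE; interval 0.58 to 1.58; edgeR adjusted p = 0.0818), and it was higher in 5 of 5 shCRX libraries than in every control of the same line. PMVK was the only other gene with no overlap in the same direction in both lines (0.66, edgeR adjusted p = 0.201), which makes 2 of 29 genes, against 3.87% of all tested genes. CYP51A1 was without overlap in opposite directions, higher in D425 shCRX and lower in HD-MB03 shCRX.

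The difference between the lines was tested directly as the D425 effect minus the HD-MB03 effect. CYP51A1 was the called member, with a difference of 4.06 ± 0.54 (SE; interval 2.89 to 5.23; edgeR adjusted p = 0.00211), where 4.16% of all tested genes passed. It stayed past the threshold in all 10 fits that left out a library (3.12 to 4.58) and missed it with the vector libraries alone as controls (3.32, adjusted p = 0.125). By edgeR, STARD4 (-1.63, edgeR adjusted p = 0.0528), INSIG1 (-1.77, adjusted p = 0.137) and SREBF2 (-0.78, adjusted p = 0.146) did not pass, and the difference for SC5D was 0.00 ± 0.46 (SE). STARD4 passed with DESeq2 (-1.58, adjusted p = 0.0145), and STARD4 and INSIG1 passed with no filter on low counts. This contrast sets one number set of libraries against the other as well as one line against the other, and these cannot be told apart.

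More of the 29 genes passed between the lines than between the arms of either line, but by size of change the lines did not stand apart. Between the lines, 3 of the 29 had a log2 fold change of at least 1 in size. Between the arms, 5 did in HD-MB03 and 1 did in D425. D425 against HD-MB03, averaged over arms so that the number sets balance, 11 of the 29 genes passed (6 higher, 5 lower in D425), where 46.0% of all tested genes passed (24.4% higher, 21.6% lower). Libraries of the lines did not overlap for 2 of the 29 genes that were higher in D425 and 2 that were lower, while 29.1% of all tested genes did not overlap. SC5D stood out in size, with a lowest, median and highest level of 177, 301 and 643 CPM in the 6 D425 libraries, against 34.4, 47.5, 22.5 and 16.1 CPM in the 4 HD-MB03 libraries (here and below the shCRX pair, the vector and the parental library). Every D425 library was above every HD-MB03 library, and the difference was 3.45 ± 0.23 on the log2 scale (SE, interval 2.95 to 3.95), 10.9 times the HD-MB03 level, with an edgeR adjusted p of 3.83e-07. It was 4.53 between D425 shCRX and HD-MB03 controls (numbers 20 to 62) and 2.36 between D425 controls and HD-MB03 shCRX (numbers 110 to 136), both past the threshold. Without either HD-MB03 control library it was 2.90 (edgeR adjusted p = 1.0e-04). That fit set both D425 arms against HD-MB03 shCRX alone, so arms and number sets do not balance in it.

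The 5 other genes that were higher in D425 included 1 regulator. SREBF1 had 69.5, 107.8 and 143 CPM (lowest, median, highest) in D425, against 54.8, 65.5, 64.9 and 70.3 in HD-MB03 (0.75, edgeR adjusted p = 0.00573). SQLE, squalene epoxidase, a rate-limiting enzyme of the sterol branch, had 142, 167 and 212 CPM in D425, against 133, 134, 66.5 and 119 in HD-MB03, without overlap (0.62, edgeR adjusted p = 0.0103). EBP, the sterol isomerase, had 59.7, 98.3 and 153 CPM in D425, against 50.3, 72.0, 46.1 and 68.7 in HD-MB03 (0.79, edgeR adjusted p = 0.0199), and overlapped. PMVK (17.6, 26.6 and 35.8 CPM in D425, against 20.1, 22.9, 17.2 and 8.85 in HD-MB03) was at 0.66, and TM7SF2 (8.27, 11.1 and 14.6 CPM in D425, against 2.36, 12.8, 2.68 and 1.56 in HD-MB03) at 1.43. The HD-MB03 control values of TM7SF2 rest on 5 reads in the vector and 3 in the parental library. Without the HD-MB03 control libraries SREBF1 kept its call (0.83, edgeR adjusted p = 0.0233) and SQLE, EBP, PMVK and TM7SF2 lost it (adjusted p = 0.0883 to 0.453).

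Of the 5 genes lower in D425, LSS, which folds squalene epoxide into lanosterol, had 67.7, 79.0 and 105 CPM (lowest, median, highest) in D425, against 144, 150.9, 153 and 224 in HD-MB03, without overlap (-1.02, interval -1.38 to -0.66, edgeR adjusted p = 2.78e-04). FDPS, the farnesyl diphosphate synthase, had 30.4, 56.3 and 61.8 CPM in D425, against 103, 108, 62.2 and 79.1 in HD-MB03, also without overlap (-0.78, edgeR adjusted p = 0.00744). MSMO1, the sterol methyl oxidase, had 20.03, 30.5 and 48.6 CPM in D425, against 79.5, 47.0, 46.7 and 49.97 in HD-MB03 (-0.71, edgeR adjusted p = 0.0345). Without the HD-MB03 controls, LSS, FDPS and MSMO1 remained past the threshold (-0.85, -1.08 and -0.91). INSIG1, also lower, had 17.8, 54.3 and 88.1 CPM in D425 (-0.83, edgeR adjusted p = 0.0461) and remained past the threshold too, at -1.36. That fit set both D425 arms against HD-MB03 shCRX alone. Within a number set, between D425 controls and HD-MB03 shCRX, LSS and FDPS passed and MSMO1 and INSIG1 did not.

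CYP51A1 did not keep its direction: it had 4.54, 6.80 and 8.89 CPM in D425, against 4.15, 3.80, 22.0 and 60.9 in HD-MB03 (-0.98, edgeR adjusted p = 0.00951), but 0.70 (adjusted p = 0.0872) without the HD-MB03 controls. Between D425 shCRX and HD-MB03 controls it was -2.33, and between D425 controls and HD-MB03 shCRX 0.37 (edgeR adjusted p = 0.499). STARD4, at 0.04 in the average of arms, was at -0.72 (edgeR adjusted p = 0.0183) without the HD-MB03 controls. Within the number sets, 10 genes passed between D425 shCRX and HD-MB03 controls (30.7% of all tested genes) and 4 between D425 controls and HD-MB03 shCRX (31.2% of all). SREBF1 higher, SC5D higher, FDPS lower and LSS lower were the 4 of the second set, of which SC5D and LSS also passed in the first. FASN (-0.89, edgeR adjusted p = 0.0257) and ACLY (-0.83, edgeR adjusted p = 0.0477) were among the 10 of the first set, both lower in D425 shCRX than in the HD-MB03 controls. None of the 6 fatty acid genes passed between the lines in the edgeR test on the average of arms (0 called, 1 at an unadjusted p under 0.05, where 53.0% of all tested genes had one), with log2 fold changes of -0.50 for SCD to 0.17 for ELOVL6 and intervals that all lay inside -1 to 1. Without D425 shCRX replicate 2, ACLY (-0.53, edgeR adjusted p = 0.0112) and FASN (-0.47, edgeR adjusted p = 0.0278) passed there too, both lower in D425.

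**Figure D4:**
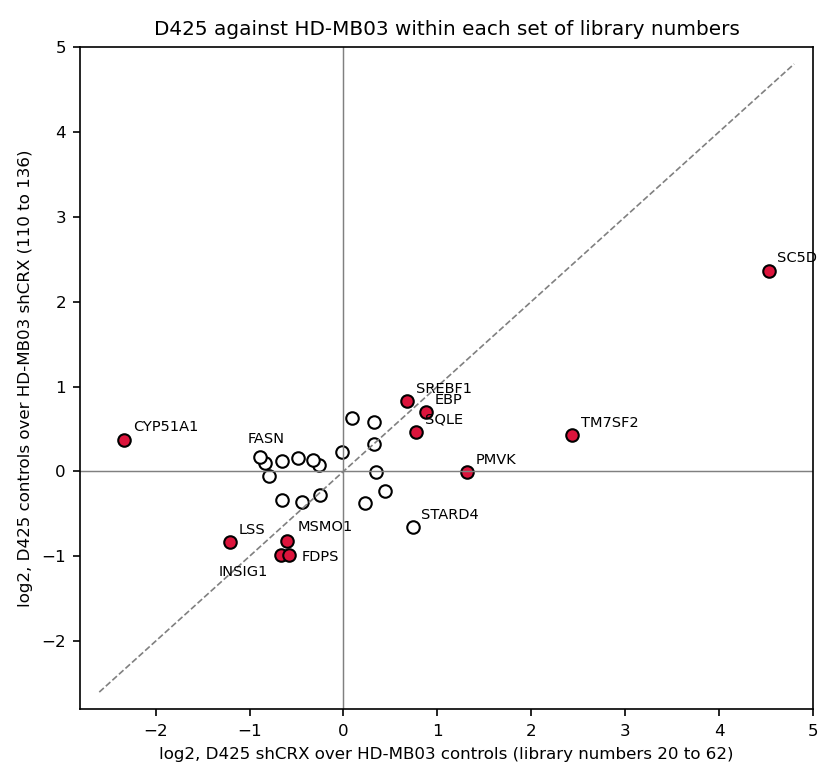
Log2 fold change of D425 over HD-MB03 for 29 genes, between D425 shCRX and HD-MB03 control libraries (x axis) and between D425 control and HD-MB03 shCRX libraries (y axis), with filled points for an adjusted p under 0.05 on the average of arms and a dashed line of equality. SC5D lies at 4.53 and 2.36, LSS, FDPS, MSMO1 and INSIG1 are below 0 on both axes, and CYP51A1 lies at -2.33 and 0.37.

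The empty-vector libraries were set against the parental ones as a check on the controls, 1 vector library per line. Of the 29 genes 0 passed (edgeR, mean of the lines; 4 at an unadjusted p under 0.05, all lower), as did 0 of all tested genes, 5.17% of which had an unadjusted p under 0.05. The estimates leaned to one side: 25 of the 29 were negative, against 48.6% of all tested genes, with a median of -0.27 against 0.01. In D425, 21 of the 29 were lower in the vector library than in the mean of the parental libraries (48.5% of all tested genes), with a median difference of -0.21 in log2(CPM + 1), and 16 lay below both parental libraries (32.7% of all). In HD-MB03, 23 of the 29 were lower in the vector than in the parental library (44.6% of all), with a median difference of -0.51. With 1 vector library per line these are descriptions of libraries and not of the vector.

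SCD had 299 CPM in the D425 vector library, against 440.3 and 322 in the parental libraries, and 267 in the HD-MB03 vector library, against 585 in the parental one. DHCR7, the last reductase of cholesterol synthesis, had 66.0 CPM in the D425 vector library, against 97.1 and 83.8 in the parental libraries, and 46.7 in the HD-MB03 vector library, against 98.4 in the parental one. SQLE had 162 CPM in the D425 vector library, against 212 and 178 in the parental libraries, and 66.5 in the HD-MB03 vector library, against 119 in the parental one. All 3 genes were lower in the vector library than in each parental library of the same line. They are shown because their unadjusted p was under 0.05 in this comparison, so their direction adds no support. CYP51A1, at -0.86, was the fourth gene with an unadjusted p under 0.05. SC5D ran the other way in both lines, by 0.55 in D425 and 0.46 in HD-MB03, on the log2(CPM + 1) scale.

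**Figure D5:**
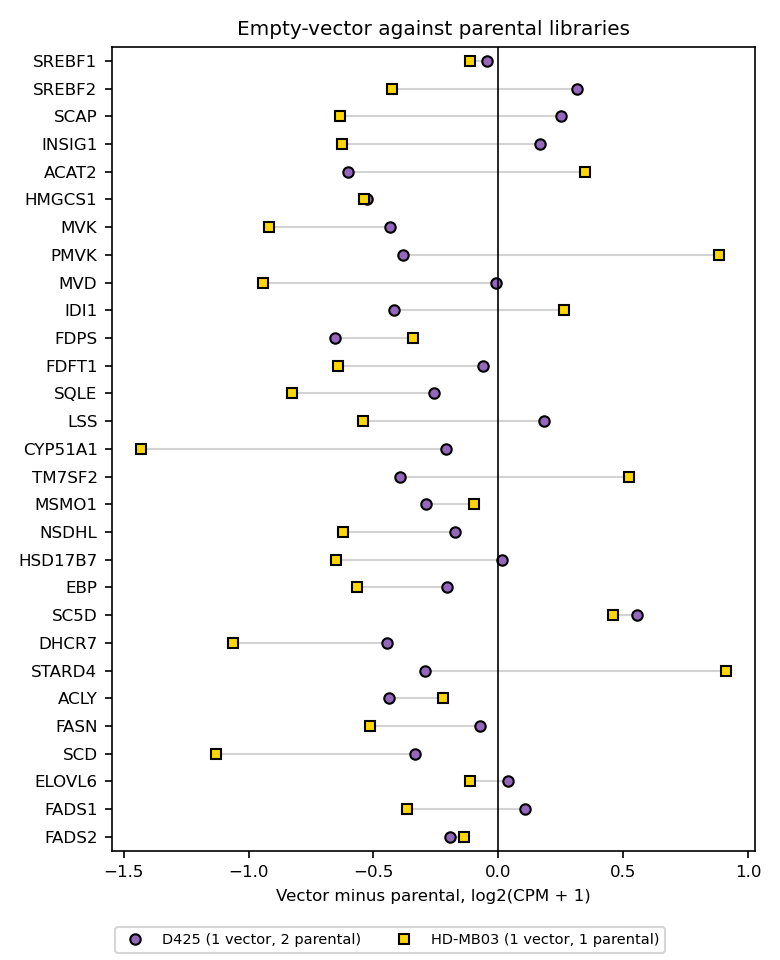
Difference of the empty-vector library from the mean of the parental libraries in log2(CPM + 1), for 29 genes in D425 (circles) and HD-MB03 (squares). Most points lie left of 0, 21 of 29 in D425 and 23 of 29 in HD-MB03, and SC5D lies right of 0 in both lines.

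Genes of neighbouring pathways were compared between arms in the same fit. The lists held 15 tested genes of other cholesterol and isoprenoid steps and 26 of sterol regulation and traffic. They also held 29 of other fatty acid and lipid synthesis and 20 of fatty acid oxidation. By edgeR, 0 passed in D425, in HD-MB03 or in the mean of the lines. In that order, 1, 4, 8 and 2 genes had an unadjusted p under 0.05 in D425, where 17.3% of all tested genes had one. In HD-MB03 these counts were 3, 4, 12 and 1, where 17.2% of all tested genes had one. The difference between the lines in the shCRX effect was called for 1 of 15, 1 of 26, 2 of 29 and 0 of 20 genes of these lists, against 4.16% of all tested genes. The called genes were NUS1, a subunit of the dolichol-making cis-prenyltransferase (-1.12, edgeR adjusted p = 0.0425), NR1H2, the oxysterol receptor LXR beta (1.34, adjusted p = 0.0407), ELOVL4, an elongase of very long chains (-1.82, adjusted p = 0.0235), and ACSL3, an acyl-CoA synthetase (-1.19, adjusted p = 0.0481). NR1H2 had 25.0, 24.6 and 19.7 CPM in D425 shCRX, against 16.5 in the vector and 13.5 and 14.8 in the parental libraries, and 19.9 and 22.3 in HD-MB03 shCRX, against 31.1 in the vector and 37.5 in the parental library. ELOVL4 had 46.5, 31.9 and 39.1 CPM in D425 shCRX, against 87.0 in the vector and 68.8 and 47.1 in the parental libraries, and 48.2 and 40.8 in HD-MB03 shCRX, against 22.0 in the vector and 21.3 in the parental library. Within each line the groups do not overlap for either gene, as for 23.0% of all tested genes in D425 and 52.3% in HD-MB03, and the lines point in opposite directions. In this contrast line and library-number set cannot be told apart. The GC content was 60.9% for NR1H2, 39.0% for ELOVL4, 38.1% for ACSL3 and 38.0% for NUS1, and its part in these calls was not tested.

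Between the lines, 6 of 15, 11 of 26, 15 of 29 and 11 of 20 genes of the same 4 lists passed, against 46.0% of all tested genes. The largest called differences included AGPAT2, an acyltransferase of phospholipid synthesis, with 0.636, 0.733 and 1.54 CPM (lowest, median, highest) in D425, against 15.8, 27.4, 32.7 and 42.7 in HD-MB03 (-5.13, edgeR adjusted p = 2.00e-08). MYLIP, a ubiquitin ligase that lowers lipoprotein receptors, had 2.68, 4.27 and 4.60 CPM in D425, against 45.5, 61.4, 48.8 and 25.0 in HD-MB03 (-3.48, edgeR adjusted p = 1.54e-07). SCD5, the second human stearoyl-CoA desaturase, was also lower in D425 (-2.77, edgeR adjusted p = 1.27e-04), whereas CPT1C, the neuronal carnitine palmitoyltransferase, was higher (2.69, adjusted p = 4.74e-04). LBR, which doubles as a sterol reductase, was lower in D425 (-1.42, edgeR adjusted p = 3.81e-05). TM7SF2, the other sterol reductase of that step, was higher in D425, but its libraries overlapped between the lines. Its HD-MB03 controls held 5 reads (vector) and 3 reads (parental), and its call was lost without them.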

How the data were processed

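Poly(A) RNA of 10 libraries was sequenced, and the authors deposited unnormalised read counts for each gene and library. The submitters' processing notes name the build GRCh37 (hg19) and the tools HISAT2, HTSeq, bcl2fastq and DESeq2, and versions and the strand setting are not given in the sources used here. Symbols were matched through Ensembl identifiers (51996 of 57820), and entries that name no gene stayed out of library sizes, so that 50.5% to 79.3% of reads entered. Counts were fitted in R 4.3.3 with edgeR 4.0.16 (TMM scaling, filterByExpr, robust quasi-likelihood, 4 groups of line and arm, 6 residual degrees of freedom), with adjusted p over all 16006 tested genes, two-sided. The biological coefficient of variation was 26.0%. A fit of 6 groups compared vector with parental libraries, with 4 residual degrees of freedom. CPM use effective library sizes, intervals are 95% Wald intervals, and 3 counts equal 0.166 to 1.53 CPM of unscaled library totals, which covers counting error only.

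Members and lists were chosen with earlier results of these data known. All members are accounted for, with values per library (between the lines, the lowest, median and highest for D425) for those called in any of the first 5 comparisons and for SREBF1, SREBF2, SCAP and INSIG1, and other genes were named for their size of change among called genes of a list with at least 1 CPM, up to 4 per list and comparison, of which the text names a selection; members given per library beyond these were chosen after their values were seen. Some results are not reported here. D425 parental and shCRX libraries share replicate numbers 1 and 2, but deviations of same-numbered libraries had a correlation of 0.0258 across genes, so no block was used. No libraries were identical (0 pairs), and pairs within groups differed by more than counting error (chi-square over its degrees of freedom, 10.03 to 58.7). Alternatives were DESeq2 1.42.0, limma-voom (limma 3.58.1), other scalings, no filter, each line alone, each kind of control alone, thinning, GC and length correction, a replicate block, and each library left out, and, added after seeing the data, both HD-MB03 controls left out. The fit was tested on simulated data. Reads of genes with pseudogenes or overlapping genes, among them CYP51A1, ACAT2, FDPS, HSD17B7 and SCD, are uncertain.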

Additional observations from a re-analysis of the deposited data

Results flagged for a closer look

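CYP51A1, the lanosterol demethylase, differed between the lines in its shCRX effect by the interaction term of the edgeR fit, 4.06 on the log2 scale (D425 minus HD-MB03, adjusted p = 0.00211), being higher than the controls in 3 of 3 D425 shCRX libraries and lower in 2 of 2 HD-MB03 shCRX libraries. CRX differed in the same way with the opposite sign, -2.14 (edgeR adjusted p = 0.0199), being lower than the controls in 3 of 3 D425 shCRX libraries and higher in 2 of 2 HD-MB03 libraries labelled shCRX. In both cases line and library-number set cannot be told apart.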

How the results depend on the processing

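Of 3555 values of single genes under 22 alternatives, 3435 kept their side of the threshold and, where called, their direction, 80 lost a call, 38 gained one and 2 reversed. Values called in neither setting count as kept whatever their sign. The reversals came in D425 against HD-MB03 without both HD-MB03 control libraries, an alternative added after seeing the data. They were CYP51A1 at 0.70 and STARD4 at -0.72. That fit set both D425 arms against HD-MB03 shCRX alone, so arms and number sets do not balance in it. Causes were not tested.

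Members called in D425 shCRX against controls were 1 in the fit reported, 3 with no filter, 2 with DESeq2, limma-voom, GC and length correction or the replicate block, and 0 with each line alone, vector alone, parental alone or thinning. In HD-MB03 they were 1, with 5 for no filter, 3 for DESeq2, 2 for each line alone or the replicate block and 0 for vector alone. In the mean of the lines they were 0, with 2 for no filter or DESeq2. In the difference they were 1, with 3 for no filter, 2 for DESeq2 and 0 for vector alone. Between the lines they were 11, with 4 for vector alone and 7 without both HD-MB03 controls. Leaving out 1 library gave 0 to 1 in D425, 0 to 2 in HD-MB03, 0 to 1 in the mean, 1 to 2 in the difference, 6 to 12 between the lines and 0 between vector and parental, for which no value could be had without either vector library or the HD-MB03 parental library.

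All genes called in D425 were 476, with 1211 for no filter, 990 for DESeq2, 307 thinned, 104 for parental alone and 8 for vector alone; library totals moved the split to 367 higher and 151 lower, against 257 and 219. In HD-MB03 they were 241, with 790 for no filter, 793 for DESeq2, 495 for each line alone, 62 for parental alone and 1 for vector alone. In the mean they were 36, with 405 for no filter, 369 for DESeq2, 57 with the replicate block, 18 for library totals or limma-voom, 2 for parental alone and 0 for vector alone. In the difference they were 666, with 1579 for no filter, 1358 for DESeq2, 338 for GC and length correction, 227 for parental alone and 3 for vector alone. Between the lines they were 7365, with 4613 for vector alone, and between vector and parental 0, with 26 for no filter and 7 for DESeq2. Leaving out 1 library gave 185 to 430 in D425, 15 to 329 in HD-MB03, 3 to 71 in the mean, 177 to 841 in the difference, 5942 to 7883 between the lines and 0 to 1 between vector and parental. Where a group is left with 1 library, it is assumed to vary like the others. D425 replicate numbers pair no samples by the labels. On library totals 7 of 116 group means moved by over 1 SD.

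Limits: HD-MB03 has 2 libraries an arm, and both of its controls are shallow.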
